A study of Homo sapiens with 83 samples.

Results

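The AP-1 and immediate early transcription factors were followed as 10 genes: JUN, JUNB, JUND, FOS, FOSB, FOSL1, FOSL2, ATF3, EGR1 and MAFF. They were picked by symbol from the 60237 gene entries of the expression table, and all 10 were found in it. RNA had been sequenced from 83 libraries of the human neuroblastoma lines SHEP and SKNAS. Both lines constitutively express N-MYC-ER, in which the ligand-binding part of the estrogen receptor is joined to N-MYC so that the protein enters the nucleus when 4-hydroxytamoxifen (4OHT) is given. MYC-ON cells received 4OHT and MYC-OFF cells the ethanol vehicle 24 h after plating, so the controls carry the same transgene. After another 24 h both conditions received dexamethasone, a glucocorticoid that aligns the clocks of the cells, and circadian time (CT) counts the hours from that point. Cells were collected every 4 h from CT24 to CT76, detached with trypsin-EDTA in all libraries. SHEP had 2 series of 14 CTs per condition, 28 MYC-OFF and 28 MYC-ON libraries. Of SKNAS, 1 series per condition was analysed here, 14 MYC-OFF libraries and 13 MYC-ON libraries, the latter ending at CT72. The CTs of a series come from the same experiment and served as replicates of a condition. With CT as a factor, p-values of levels describe how a difference varied over CTs and, in SHEP, between series. Those of patterns over time describe the scatter of libraries around the fit. The SKNAS values analysed here come from 1 experiment per condition.

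AP-1 is a family of dimers built from JUN and FOS proteins, which pair through a leucine zipper and bind short TGACTCA-type elements in promoters and enhancers. Many of its genes are immediate early genes, which need no new protein to be switched on after serum, growth factors or stress and whose transcripts decay quickly. JUN and FOS proteins drive proliferation, migration and matrix remodelling genes, while ATF3 and MAFF belong to the wider basic leucine zipper class and EGR1 is a zinc finger factor that is induced beside FOS through serum response factor (SRF).

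The promoters of the members whose levels are described most closely are shown with the element each carries. RefSeq sequence on GRCh38.p14 was used, with windows of 250 bases before to 50 bases after the start of transcription. Such a window was at hand for 9 members, all but FOSL1. Capitals mark matches to 5 motifs searched on both strands. The motifs are the AP-1 element TRE (TGACTCA), the cyclic AMP response element CRE (TGACGTCA), its variant (TGACATCA), the MYC-binding E-box (CACGTG) and the CArG box bound by SRF. None of these motifs overlapped another in the windows shown.
EGR1, chr5:138465229-138465528, plus strand: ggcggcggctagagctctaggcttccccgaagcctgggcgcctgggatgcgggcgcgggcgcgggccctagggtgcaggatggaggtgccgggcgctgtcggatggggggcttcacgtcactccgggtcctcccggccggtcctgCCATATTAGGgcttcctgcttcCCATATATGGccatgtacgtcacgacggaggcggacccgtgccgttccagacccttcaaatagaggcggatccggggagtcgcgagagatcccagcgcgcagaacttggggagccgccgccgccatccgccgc
FOSL2, chr2:28392608-28392907, plus strand: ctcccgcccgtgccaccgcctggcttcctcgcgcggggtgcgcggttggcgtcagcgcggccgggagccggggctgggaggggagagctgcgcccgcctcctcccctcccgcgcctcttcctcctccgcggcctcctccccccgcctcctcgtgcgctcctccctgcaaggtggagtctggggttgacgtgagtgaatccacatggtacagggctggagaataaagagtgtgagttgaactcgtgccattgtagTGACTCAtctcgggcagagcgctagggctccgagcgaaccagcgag
JUN, chr1:58783998-58784297, minus strand: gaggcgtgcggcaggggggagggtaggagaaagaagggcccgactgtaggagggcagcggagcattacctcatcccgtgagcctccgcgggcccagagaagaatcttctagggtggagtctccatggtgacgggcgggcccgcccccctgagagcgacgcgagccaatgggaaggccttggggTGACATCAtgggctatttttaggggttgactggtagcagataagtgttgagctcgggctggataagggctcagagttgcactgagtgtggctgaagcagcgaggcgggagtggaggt
ATF3, chr1:212565157-212565456, plus strand: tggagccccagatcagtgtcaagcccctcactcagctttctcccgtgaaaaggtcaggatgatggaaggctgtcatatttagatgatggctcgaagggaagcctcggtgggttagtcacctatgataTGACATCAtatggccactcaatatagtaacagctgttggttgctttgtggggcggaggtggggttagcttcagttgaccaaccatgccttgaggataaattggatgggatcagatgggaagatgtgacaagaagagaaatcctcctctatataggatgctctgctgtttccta
MAFF, chr22:38201744-38202043, plus strand: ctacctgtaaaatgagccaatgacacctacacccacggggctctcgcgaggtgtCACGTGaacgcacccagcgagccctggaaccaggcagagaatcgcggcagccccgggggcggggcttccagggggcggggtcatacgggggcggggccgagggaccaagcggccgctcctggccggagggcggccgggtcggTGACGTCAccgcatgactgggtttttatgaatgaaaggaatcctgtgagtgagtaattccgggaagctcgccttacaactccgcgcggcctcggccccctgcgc
EGR1 holds 2 CArG boxes, at bases -105 to -96 and -83 to -74 from the start, which 0.0313% of the 35116 RefSeq promoters do, while 1.29% hold at least 1. FOSL2 holds a TRE at +5 to +11, a motif in 4.95% of promoters. JUN holds the CRE variant at -67 to -60 and ATF3 holds it at -123 to -116 in the first of its 2 windows, and 2.61% of promoters carry it. MAFF holds a CRE at -54 to -47 (in 1.85% of promoters) and an E-box at -196 to -191 (in 7.26%) in the first of its 2 windows, and another E-box in its second window. JUND holds a CRE at -200 to -193. No match lay in the windows of JUNB, FOS or FOSB or in the second window of ATF3. A match is a description of the letters and says nothing about whether a factor binds there.

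The libraries were compared first for what touches all members. TPM (transcript abundance per length, scaled to the same total in each library) account for length, so levels of different genes can be set side by side, and read depth per library is unknown. SHEP libraries had a median log2(TPM + 1) over tested genes of 3.93 to 4.17 in MYC-OFF and 3.93 to 4.12 in MYC-ON. In 4 of them, CT60 to CT72 of the second MYC-ON series, genes rich in GC were low, with a slope on GC content of -3.02 to -2.40 against -1.36 to 1.61 in the 52 others, and up to 25484 genes were above 0 against at most 24203. They are called the GC-poor libraries here. The fits of levels, of trends over time and of the difference between lines were also run without these 4 libraries. Member calls that changed are given. The 24 h cosines, gene lists, family shares, CT24 and CT48 ratios and correlations were not rerun without them. In SKNAS the median varied more: it ran from 2.97 to 4.38 in MYC-OFF and from 2.76 to 4.26 in MYC-ON, and it was under 3.8 in 4 of the 14 libraries without 4OHT and in 10 of the 13 with it. The MYC-ON levels of the members and lists in SKNAS are therefore also given with the libraries rescaled and with this median as a covariate. Endogenous MYC was at lower levels with 4OHT in SHEP and in SKNAS (from a mean of 11.3 to one of 2.56 TPM in SHEP, and from 4.12 to 23.1 TPM against 0.246 to 3.13 TPM in SKNAS libraries). MYCN reads were abundant on average in both conditions (means of 555 and 377 TPM in SHEP, 547 and 365 TPM in SKNAS). Single SHEP libraries ran from 406 to 688 TPM in MYC-OFF and from 255 to 515 TPM in MYC-ON. SKNAS libraries varied far more, from 29.1 to 987 TPM in MYC-OFF and from 13.1 to 1045.5 TPM in MYC-ON. The part of this spread in the SKNAS results was not tested. Transgene and endogenous transcripts cannot be told apart. Listed mesenchymal neuroblastoma genes summed to a median of 6808 TPM in SHEP MYC-OFF and 1832 TPM in SKNAS MYC-OFF, with VIM, FN1, SNAI2, CD44 and COL1A1 higher in SHEP and PRRX1 higher in SKNAS (means of 0.633 and 67.7 TPM). Listed adrenergic genes summed to a median of 523 TPM in SKNAS MYC-OFF, 179 TPM in SKNAS MYC-ON, 32.7 TPM in SHEP MYC-OFF and 45.9 TPM in SHEP MYC-ON. Among them HAND2 (means of 161 and 78.9 TPM), GATA3 (61.2 and 16.1 TPM) and ISL1 (29.0 and 14.8 TPM) were present in SKNAS without and with 4OHT, while the catecholamine synthesis genes TH and DBH were at 2.31 TPM or less and 2.88 TPM or less in every library. The blood cell marker PTPRC was at or near 0 in SHEP but averaged 80.4 TPM in SKNAS MYC-OFF and 21.5 TPM in SKNAS MYC-ON. The endothelial marker PECAM1 and the liver marker ALB were near 0 in both lines. The epithelial marker EPCAM averaged 0.125 TPM in SKNAS MYC-OFF and 1.16 TPM in SKNAS MYC-ON. In SHEP it averaged 0.225 TPM in MYC-OFF and 0.333 TPM in MYC-ON. The part of these markers and of PTPRC-expressing cells in the SKNAS results was not tested.

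In SHEP MYC-OFF cells the members spanned 3 tiers. JUND was the most abundant at a mean of 156 TPM, followed by FOSL1 at 106, FOSL2 at 99.9, JUNB at 90.6 and JUN at 65.5 TPM. JUN lay above ATF3 (16.4 TPM) with no overlap of their libraries, and EGR1 (14.1 TPM) and MAFF (10.1 TPM) followed. FOS at 1.11 and FOSB at 0.613 TPM formed the bottom, below MAFF in every library. Within a tier neighbours overlapped: FOSL1 exceeded FOSL2 in 16 of 28 libraries and ATF3 exceeded EGR1 in 21 of 28. The prototype FOS was thus a minor transcript beside FOSL1 and FOSL2 at these times after dexamethasone.

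**Figure D1:**
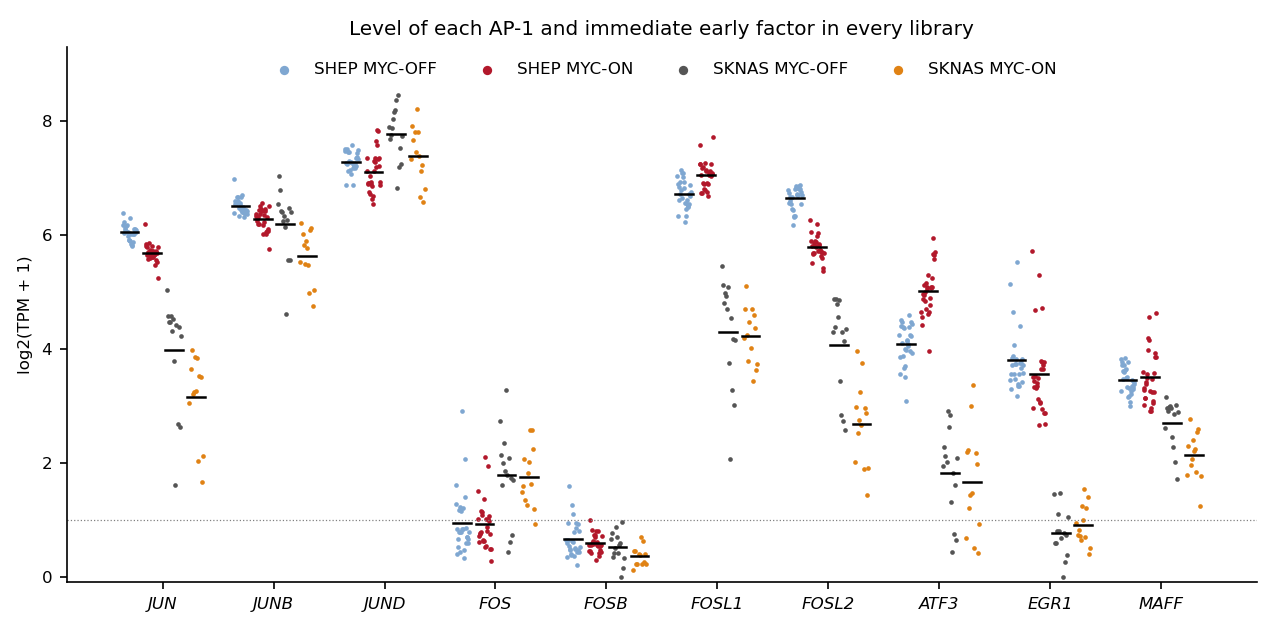
Level of the 10 AP-1 and immediate early factors in each library, as log2(TPM + 1), for SHEP and SKNAS in MYC-OFF and MYC-ON. Each point is a library and each bar a mean of log2(TPM + 1). FOS and FOSB lie lowest in SHEP, where their TPM averaged 1.11 and 0.613 in MYC-OFF, with single FOS libraries up to 6.51 TPM. JUND lies highest in SHEP by its mean.

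Activation of N-MYC-ER moved the members in both directions in SHEP. ATF3 and FOSL1 rose and JUN, JUNB, JUND, FOSL2 and EGR1 fell, while FOS and MAFF did not pass the test and FOSB was under the filter of a mean of 1 TPM. That is 2 of 9 tested members higher, where 33.0% of 14362 tested genes were called higher, and 5 of 9 lower, where 38.9% were called lower. With so many genes called in this line, these shares are near the background. Every member's libraries overlapped between the conditions, while 12.5% of tested genes had none in common. Calls rest on limma with CT as a factor, where the Benjamini-Hochberg adjusted p had to be 0.05 or less and the log2 change had to reach 0.15 in size.

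In the JUN family, whose proteins FOS proteins need as partners, all 3 members fell. JUN, the prototype family member, ran from 54.7 to 82.7 TPM in SHEP MYC-OFF (median 65.7) and from 36.7 to 72.6 TPM in MYC-ON (median 50.2). MYC-ON was lower at all 28 matched CTs, and 23 MYC-ON libraries lay under the lowest MYC-OFF one. The log2(TPM + 1) change was -0.36 (SE 0.0352, adjusted p = 8.82e-13). JUNB, which often restrains JUN, ran from 78.3 to 125 TPM (median 88.2) in MYC-OFF and from 53.1 to 93.5 TPM (median 78.3) in MYC-ON. Its MYC-ON value was lower at 25 of 28 CTs, with a change of -0.24 (SE 0.046, adjusted p = 1.14e-05). The JUNB call was lost with series means as replicates (adjusted p = 0.0985) and with the GC slope as a covariate (-0.13, under the size needed). JUND, the constitutively expressed member, ran from 116 to 191 TPM (median 153) in MYC-OFF and from 92.4 to 227 TPM (median 134) in MYC-ON. The groups overlapped widely, and the change of -0.17 (SE 0.0734, adjusted p = 0.0316) rested on the first series, where 13 of 14 CTs were lower against 7 of 14 in the second. Without the first series JUND changed by 0.06 (adjusted p = 0.583), and without the second by -0.41.

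In the FOS family FOSL2 fell and FOSL1 rose. FOSL2, a FOS-related factor with roles in mesenchymal differentiation and matrix gene expression, ran from 71.4 to 116 TPM in SHEP MYC-OFF (median 103) and from 40.1 to 76.1 TPM in MYC-ON (median 53.4). It was lower in MYC-ON at all 28 CTs, and 26 of 28 MYC-ON libraries lay under every MYC-OFF library. The change was -0.86 (SE 0.0469, adjusted p = 3.01e-21). FOSL1, which is known as FRA1 and tied to invasive states, ran from 73.7 to 139 TPM (median 104) in MYC-OFF and from 102 to 209 TPM (median 134) in MYC-ON. The groups overlapped, FOSL1 was higher in MYC-ON at 23 of 28 CTs, and the change was 0.34 (SE 0.0577, adjusted p = 1.20e-06). Series 2 carried more of this change, with all 14 CTs higher against 9 of 14 in series 1, and without series 2 it was 0.20 (adjusted p = 0.0532).

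As a share of the 4 FOS family transcripts, FOSL1 made up 50.9% ± 6.53 of the sum in MYC-OFF cells of SHEP and 70.3% ± 3.94 in their MYC-ON cells (SD, n = 28 each). The highest MYC-OFF library had 62.5% and the lowest MYC-ON library 64.1%, so this ratio separated the conditions although neither gene's libraries did. FOSL2 made up 48.3% and 28.9%. The sum of the family was 208 ± 16.3 TPM in MYC-OFF and 190 ± 27.7 TPM in MYC-ON (SD, n = 28 each), with overlapping ranges. In SKNAS the FOSL1 share was 49.8% ± 7.42 (SD, n = 14) without and 68.5% ± 6.27 (SD, n = 13) with 4OHT, with ranges of 31.2% to 63.2% and 58.1% to 77.8% that overlapped. These shares were not tested. In the JUN family JUND made up 49.8% and 51.9% in SHEP and 70.9% and 74.3% in SKNAS, in MYC-OFF and MYC-ON.

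**Figure D2:**
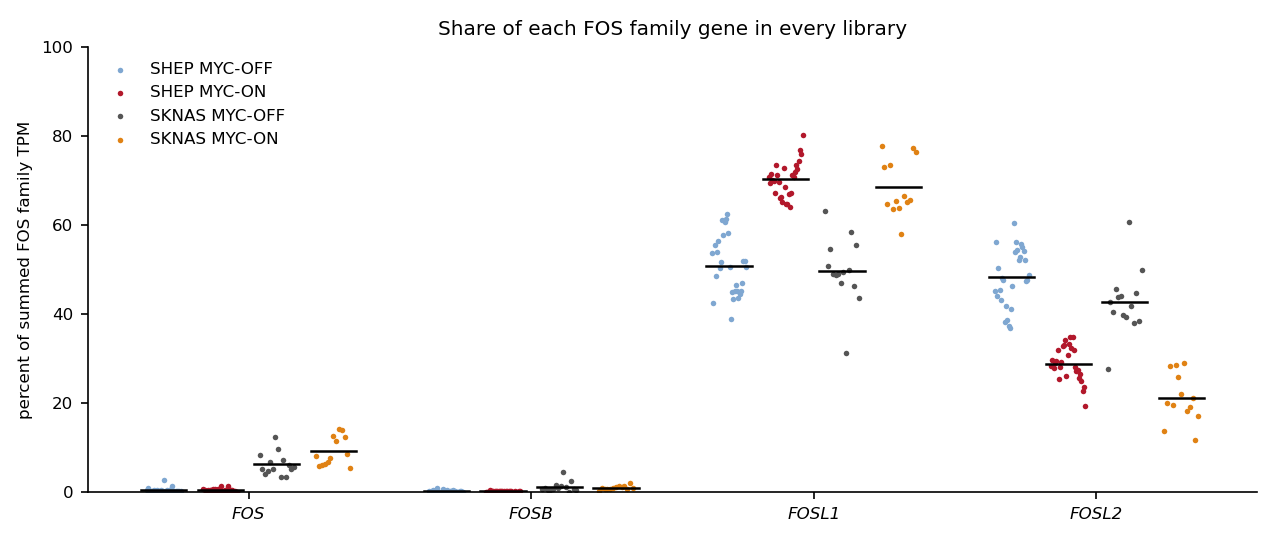
Share of the 4 FOS family transcripts taken by each member, in percent of their summed TPM, by library. Every SHEP MYC-ON library has a larger FOSL1 share than every SHEP MYC-OFF library, with means of 70.3% and 50.9%.

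FOS, the partner first identified in a retroviral oncogene, did not pass the test in SHEP. It ran from 0.251 to 6.51 TPM in MYC-OFF (median 0.725) and from 0.210 to 3.32 TPM in MYC-ON (median 0.738), and its change was -0.03 (SE 0.0955, adjusted p = 0.767). FOSB, a close relative of FOS, stayed at 2.01 TPM or less in both conditions, with medians of 0.489 and 0.480 TPM. Both ranges overlapped almost fully.

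ATF3 had the largest rise of the members in SHEP. It is an ATF/CREB factor of the stress response that acts at CRE-type sites. It ran from 7.46 to 23.3 TPM in MYC-OFF (median 16.4) and from 14.6 to 60.9 TPM in MYC-ON (median 31.5). MYC-ON was higher at all 28 CTs, 25 MYC-ON libraries lay above the highest MYC-OFF one, and the change was 0.94 (SE 0.0885, adjusted p = 4.00e-13), a ratio of means of 2.00. MAFF, a small MAF protein without an activation domain, ran from 7.002 to 13.4 TPM (median 9.84) in MYC-OFF and from 6.51 to 23.7 TPM (median 9.58) in MYC-ON, a change of 0.06 (SE 0.0869, adjusted p = 0.548). Its MYC-ON libraries reached beyond the MYC-OFF range on both sides, 8 above and 3 below. EGR1 ran from 8.003 to 44.9 TPM (median 12.1) in MYC-OFF and from 5.33 to 51.9 TPM (median 9.66) in MYC-ON, a change of -0.24 (SE 0.0692, adjusted p = 0.00201). It was lower at 21 of 28 CTs, the ranges overlapped, and without series 1 the change was -0.18 (adjusted p = 0.151).

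In SKNAS no member rose and 5 of 8 tested members fell, where 13.7% of 13886 tested genes were called higher and 34.4% lower. FOSL2 ran from 4.93 to 28.4 TPM in MYC-OFF (median 19.0) and from 1.72 to 14.6 TPM in MYC-ON (median 5.75). JUN ran from 2.06 to 31.7 TPM (median 20.1) and from 2.18 to 14.7 TPM (median 8.61). All of the members' ranges overlapped, while 4.41% of tested genes had no overlap. The changes were -1.36 for FOSL2 (SE 0.253, adjusted p = 0.000460), -0.81 for JUN (adjusted p = 0.0139), -0.55 for JUNB (adjusted p = 0.0121), -0.55 for MAFF (adjusted p = 0.0108) and -0.40 for JUND (adjusted p = 0.0273). FOSL1 at -0.07, ATF3 at -0.13 and FOS at -0.05 did not pass.

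These SKNAS calls moved with the library median. The median change over all tested genes was -0.29 in SKNAS and -0.04 in SHEP. After rescaling, which brought the all-gene median to 0.03, JUN (-0.47), FOSL2 (-1.04) and MAFF (-0.25) were called lower and JUNB and JUND were not. With the library median as a covariate only FOSL2 fell (-0.73), and ATF3 (0.50), FOS (0.48) and FOSL1 (0.44) were called higher. With the libraries under a median of 3.8 left out, 10 MYC-OFF and 3 MYC-ON libraries remained and no member was called, FOSL2 being at -0.87 (adjusted p = 0.213). In those libraries FOSL2 had a mean of 22.7 ± 4.66 TPM in MYC-OFF (SD, n = 10) and of 11.8 ± 3.14 TPM in MYC-ON (SD, n = 3), and the ranges did not overlap, while ATF3 means were 3.88 ± 1.54 and 6.64 ± 2.82 TPM. JUN and JUNB ranges did not overlap in those libraries either. The share of all tested genes without overlap among those libraries was not determined. With 3 MYC-ON libraries left, nothing is read from these separations. FOSL2, JUN, JUNB, JUND and MAFF thus kept their direction under every one of these treatments, and ATF3, FOS and FOSL1 did not. JUND was at -0.01 without the low-median libraries. Only FOSL2 was called both after rescaling and with the covariate.

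**Figure D3:**
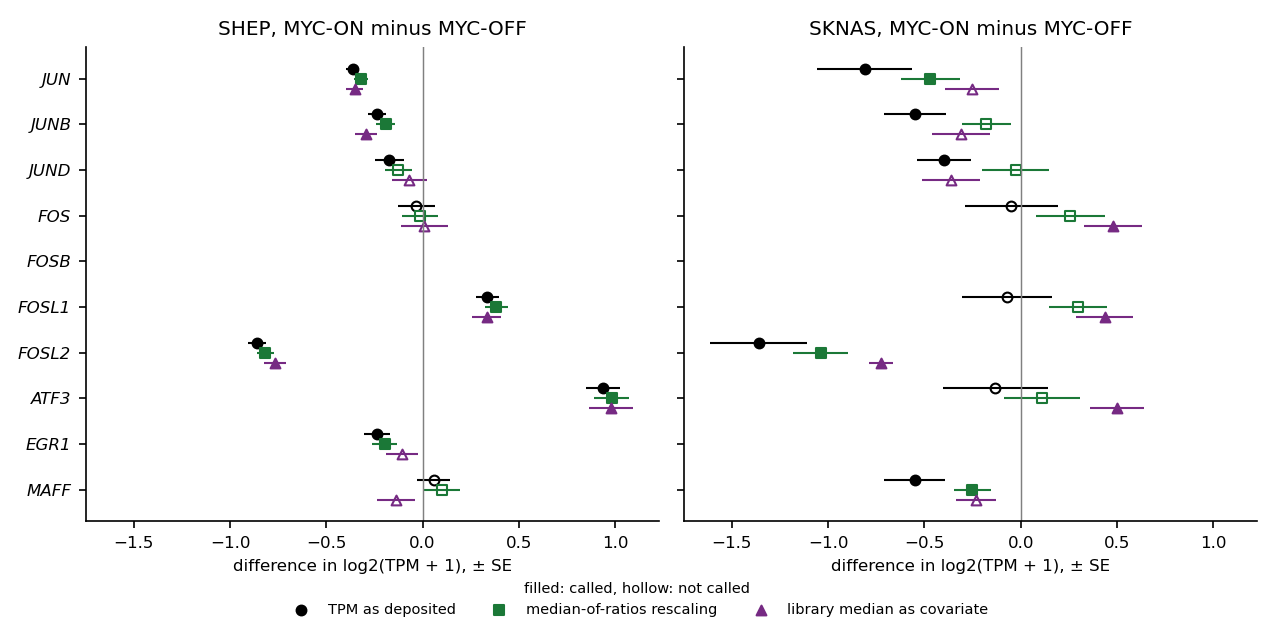
Change of each member in MYC-ON against MYC-OFF on the log2(TPM + 1) scale with its standard error, in SHEP and in SKNAS. Circles use TPM as deposited, squares rescaled TPM and triangles the library median as a covariate. Filled points were called and hollow points were not. FOSB, and EGR1 in SKNAS, were under the filter and have no point. FOSL2 circles lie lowest in both lines, at -0.86 and -1.36, and ATF3 circles lie at 0.94 in SHEP and -0.13 in SKNAS.

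An interaction term, fitted over the 83 libraries, tested whether the effect of MYC-ON differed between the lines. Of 9 tested members, 6 had a lower effect in SKNAS than in SHEP, where 38.0% of 15942 tested genes did, and 1 had a higher effect, where 13.5% did. ATF3 differed most, by -1.07 (SE 0.216, adjusted p = 4.10e-05), followed by MAFF at -0.61 (SE 0.164, adjusted p = 0.00168). FOSL2 differed by -0.50, JUN by -0.45, FOSL1 by -0.41 and JUNB by -0.31, with adjusted p from 0.0124 to 0.0367. ATF3 kept the call after rescaling (-0.89) and with the median covariate (-0.54), and so did MAFF (-0.40 in both). JUN, JUNB and FOSL1 lost it under both, and FOSL2 lost it under the covariate (0.04). EGR1, the 1 member with a higher effect (0.41), passed the filter only through SHEP and lay under 2 TPM in SKNAS, where log2(TPM + 1) compresses any change, so nothing is read from its call. ATF3 was the 1 member that kept its call without either SHEP series. Without series 1 the calls of JUN, JUNB, FOSL1, FOSL2 (-0.32, adjusted p = 0.351) and EGR1 (0.35, adjusted p = 0.143) were lost and JUND was called (-0.46, adjusted p = 0.0333). Without series 2 those of JUN, JUNB, FOSL1 and MAFF (-0.54, adjusted p = 0.0515) were lost. Without the 4 GC-poor libraries FOSL1 was at -0.40 (adjusted p = 0.0501).

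With N-MYC-ER inactive, the levels of the members differed between the lines. In MYC-OFF 7 of 9 tested members were lower in SKNAS than in SHEP, where 45.6% of 15942 tested genes were, and 2 were higher, where 33.5% were. EGR1 had means of 14.1 TPM in SHEP and 0.763 TPM in SKNAS, an 18.5-fold ratio. It passed the filter only through SHEP, where it is high, so nothing is read from its call. The count of 7 of 9 includes it. FOSL2 was 5.52-fold, ATF3 5.50-fold, FOSL1 4.80-fold and JUN 3.75-fold more abundant in SHEP, and their log2 differences were -2.57, -2.27, -2.43 and -2.07. The libraries of these 5 members, EGR1 included, did not overlap between the lines, as for 30.7% of tested genes. JUND was higher in SKNAS by 0.50 (adjusted p = 2.23e-05) and FOS by 0.84 (adjusted p = 2.33e-05), with overlapping ranges. MAFF was lower by 0.75 on the log2 scale and JUNB by 0.31, and the JUNB call was lost after rescaling (-0.14) and with the median covariate (-0.05).

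The order of levels in SKNAS was another one. In SKNAS MYC-OFF JUND (229 TPM) and JUNB (77.6 TPM) led, FOSL1 (22.1), FOSL2 (18.1) and JUN (17.5 TPM) followed, and FOS at 2.95 TPM stood level with ATF3 at 2.99 TPM, ATF3 being above FOS in 7 of 14 libraries. Among FOS family transcripts FOS made up 6.30% in SKNAS MYC-OFF and 0.521% in SHEP MYC-OFF. In SKNAS MYC-ON the order was JUND, JUNB, FOSL1, JUN, FOSL2, MAFF, ATF3, FOS, EGR1 and FOSB, from 175 to 0.292 TPM. EGR1 and FOSB were listed at 0 in 1 SKNAS MYC-OFF library each, and in no SHEP library.

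Over time EGR1 had the most pronounced pattern, at CT24 and CT48. EGR1 was at 34.1 and 44.9 TPM at CT24 in the first and second MYC-OFF series of SHEP and at 51.9 and 38.3 TPM at CT24 in the MYC-ON series. It was at 24.1 and 20.2 TPM at CT48 in MYC-OFF and at 24.6 and 25.4 TPM at CT48 in MYC-ON. At every other CT it lay between 5.33 and 15.7 TPM, including CT72, where it was at 13.2, 12.1, 10.2 and 5.43 TPM. CT24 and CT48 were thus the highest and the next highest of 14 CTs in all 4 series, in both conditions, and CT72 did not stand out. The mean over these 8 libraries was 32.9 TPM against 10.2 TPM over the 48 others, a ratio of 3.21.

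Among the 14362 genes tested in SHEP, EGR1 was the 1 gene with this pattern in all 4 series, 0.00696% of them. The pattern was chosen after its values were seen and is a description without a test. Within single series 318, 253, 349 and 109 genes had it, and 6 genes had it in at least 3 series. After rescaling TDG joined EGR1, making 2 genes. The ratio of the CT24 and CT48 mean to the mean of the other CTs lay between 0.805 and 1.22 for the middle 90% of genes. FOS, at 3.51, ranked higher than EGR1 by this ratio, and had the pattern in both series 2 sets, with 6.51 and 3.18 TPM in MYC-OFF and 3.32 and 2.87 TPM in MYC-ON. FOSB had it only in the second MYC-ON series, with 0.745 and 0.749 TPM. The other tested members had ratios from 0.917 for JUNB to 1.13 for FOSL2, within the range of most genes. FOSB was under the filter and was left out of these ratios. JUN was highest at CT24 in all 4 series, at 82.7, 78.1, 72.6 and 54.9 TPM, and CT48 was not the next highest in any. In the second MYC-ON series CT76 came close, at 54.3 TPM. The share of all tested genes that were highest at CT24 in all 4 series was not determined.

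**Figure D4:**
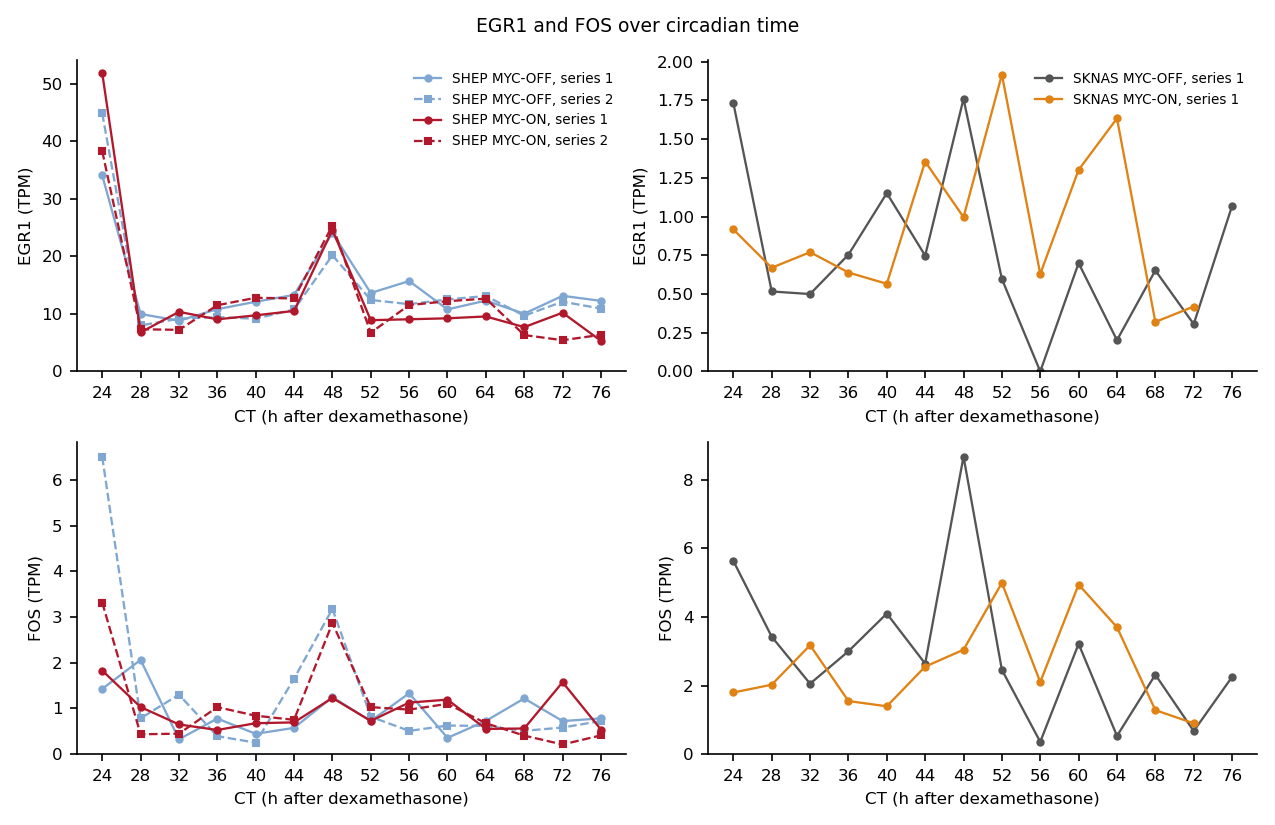
EGR1 and FOS in TPM over circadian time in hours, by series, in SHEP MYC-OFF and MYC-ON and in SKNAS, each panel with its own axis. In SHEP EGR1 stands out at CT24 (34.1 to 51.9 TPM) and CT48 (20.2 to 25.4 TPM) in both conditions and returns to 5.33 to 15.7 TPM elsewhere.

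The pattern was shared by few of the other immediate early genes. Of 22 tested, 10 had a higher mean at CT24 and CT48 than at other CTs, and their median ratio was 0.972, against 1.01 over all tested genes. CSRNP1, an AXIN1-induced factor, had a ratio of 1.41 and the pattern in 3 of 4 series. PLK2 (ratio 1.17) had the pattern in 2 series and TRIB1 (1.34) in 1. IER3 (1.34), KLF2 (1.34) and IER2 (1.28) had it in none. ZFP36, which destabilises AU-rich transcripts, had a ratio of 0.696 and KLF4 0.622. Heat shock genes, read as a sign of handling, had a median ratio of 0.983, with 4 of 8 above 1. The library median in SHEP was 4.01 to 4.14 at CT24 and CT48 and 3.93 to 4.17 elsewhere. The part of handling, medium or plating schedule in the EGR1 values was not tested. In SKNAS MYC-OFF EGR1 was also highest at CT48 and CT24 (1.76 and 1.73 TPM, against 1.15 TPM or less elsewhere), as was FOS (8.68 and 5.64 TPM, against 4.10 TPM or less). In SKNAS MYC-ON neither was, and both were highest at CT52. The SKNAS MYC-ON libraries at CT24 and CT48 had low medians, 3.09 and 3.48. The one at CT52 had a median of 4.26 and a GC slope of -3.45. In SKNAS MYC-OFF the CT24 and CT48 medians were 4.19 and 4.38. The part of these library differences in the SKNAS pattern was not tested.

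A cosine with a fixed period of 24 h, with a linear trend for each series, was called for no member in any group by the limma F test. At an unadjusted p under 0.05 in this test were 2 of 9 members in SHEP MYC-OFF, where 1500 of 14362 genes were. These were FOS (p = 0.00537) and EGR1 (p = 0.0221). In SHEP MYC-ON 1 of 9 was (FOSL1, p = 0.00216), where 1542 of 14362 genes were. In each SKNAS group 0 members were, where 60 of 13886 genes were in MYC-OFF and 46 in MYC-ON. The lowest Benjamini-Hochberg adjusted p were 0.312 and 0.288 in SHEP. Few genes were called at all, 0.0905% for SHEP without and 0.0209% with 4OHT, and 0.0% for SKNAS without as well as 0.0% with it.

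In SHEP MYC-ON ATF3 and MAFF rose over the collection period. ATF3 rose by 0.48 (SE 0.0897, adjusted p = 8.29e-06) and MAFF by 0.56 (SE 0.0739, adjusted p = 5.29e-09) on the log2 scale per 24 h, so 2 of the 9 tested members rose, where 16.5% of genes did. FOSL2 fell by 0.15 and EGR1 by 0.51, which makes 2 of 9, where 30.6% of genes fell. Neither fall was called once CT24 was left out (-0.09, adjusted p = 0.164, for FOSL2 and -0.19, adjusted p = 0.208, for EGR1). Without the 4 GC-poor libraries FOSL2 was at -0.10 (adjusted p = 0.103) and JUND was called, at -0.21 (adjusted p = 0.0284). With series as a block JUND was called too, at -0.15 (adjusted p = 0.0408). In SHEP MYC-OFF no member rose, where 2.34% of genes did, and none fell, where 4.01% did, with a lowest adjusted p of 0.0925 for FOSL2. At an unadjusted p under 0.05 were 2 of 9 members, FOS and FOSL2, where 3068 of 14362 genes were. With CT24 left out FOSL1 rose there by 0.21 (adjusted p = 0.0440).

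The difference of the trends between MYC-ON and MYC-OFF in SHEP was called higher for ATF3 (0.45, SE 0.127, adjusted p = 0.00377) and MAFF (0.58, SE 0.105, adjusted p = 1.01e-05), 2 of 9 tested members, where 13.7% of genes were. It was called lower for none, where 23.3% were. Without the 4 GC-poor libraries the differences were 0.35 for ATF3 (adjusted p = 0.0258) and 0.60 for MAFF (adjusted p = 2.68e-05), and JUNB was called too, at 0.20 (adjusted p = 0.00417). ATF3 in the second MYC-ON series was at 23.5 ± 5.38 TPM (SD, n = 5) from CT24 to CT40 and at 51.5 ± 5.48 TPM (SD, n = 5) from CT60 to CT76. In the first it went from 25.1 ± 3.99 to 32.7 ± 4.85 TPM (SD, n = 5 each), a smaller step. Of the 5 late libraries of the second series 4 are the GC-poor ones. The ATF3 slope in MYC-ON was 0.70 without the first series, 0.26 without the second (adjusted p = 0.0455) and 0.38 without those 4 libraries (adjusted p = 0.000573). In MYC-OFF the same windows lay between 13.7 and 17.7 TPM. MAFF went from 8.75 to 16.5 TPM in the first and from 7.41 to 15.2 TPM in the second MYC-ON series, and reached 22.6 and 23.7 TPM at CT76. In MYC-OFF its window means lay between 8.94 and 11.6 TPM. MAFF in MYC-ON began under MYC-OFF and ended above it, so its averaged change of 0.06 covers a crossing.

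**Figure D5:**
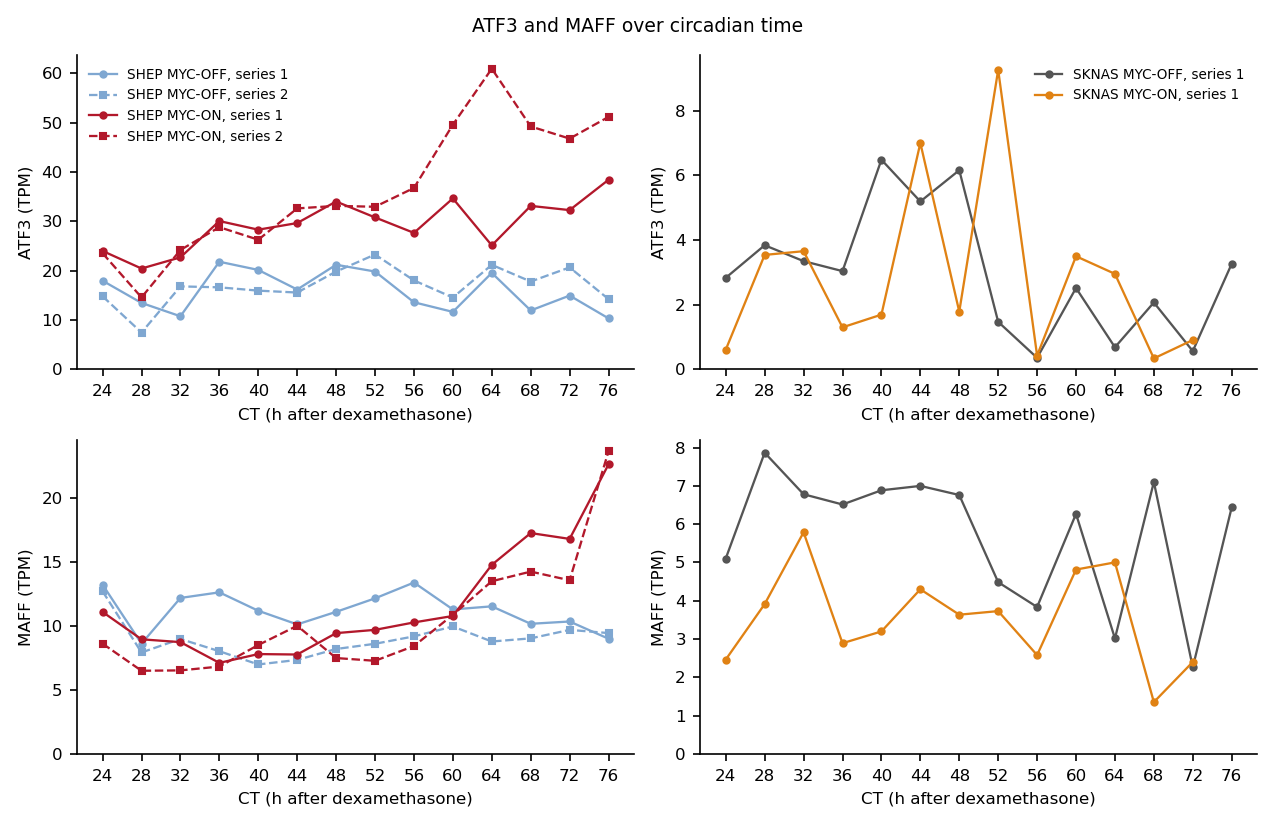
ATF3 and MAFF in TPM over circadian time in hours, by series, in MYC-OFF and MYC-ON, each panel with its own axis. MAFF in SHEP MYC-ON rises to 22.6 and 23.7 TPM at CT76 while MYC-OFF stays at 13.4 TPM or less, and ATF3 in MYC-ON reaches 60.9 TPM.

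In SKNAS no member had a called trend. Genes called to rise were 0.0504% in MYC-OFF and 0.036% in MYC-ON, those called to fall 0.101% and 0.13%, and for the difference of trends they were 0.0288% higher and 0.0504% lower. FOSL1 in MYC-OFF had the strongest trend of the members, at -0.90 (SE 0.241, unadjusted p = 0.000900, limma adjusted p = 0.122). In MYC-ON it was JUND at -0.53 (SE 0.189, adjusted p = 0.558).

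The genes most like each member over the 56 SHEP libraries were found by Pearson's r of log2(TPM + 1) with each condition's mean removed. The libraries share series and CTs, so r is a description. MAFF was closest to EPHA2 (r = 0.91), a receptor tyrosine kinase, GADD45A (0.89), a stress-induced growth arrest gene, and NUAK2 (0.88). FOSL2 was closest to TRAM2 (0.87), then TENM2 (0.81) and IDS (0.81). EGR1 was closest to PDP1 (0.84), CSRNP1 (0.79) and KRTAP2-3 (0.75). Without CT24 and CT48 these 3 fell to 0.55, 0.45 and 0.03, over the remaining 48 libraries. FOS was closest to EGR1 itself (0.71, and 0.31 without those CTs), then KRTAP2-3 (0.59) and LZTS3 (0.58). ATF3 was closest to DSG3 (0.78), AARS1 (0.75), the cytosolic alanyl-tRNA synthetase, and IL20RB (0.74). FOSL1 was closest to TRAF1 (0.66), LIF (0.63) and EPHA2 (0.62). JUN was closest to EIF6 (0.75), UBE2J2 (0.74) and TRIP6 (0.74), JUNB to MTX1 (0.79), SNAPC2 (0.79) and CEBPB (0.78), and JUND to CLPTM1L (0.67), MED29 (0.64) and PRPF19 (0.63). Among the members themselves FOSL1 with MAFF (0.51), JUN with EGR1 (0.46) and JUN with FOSL2 (0.43) followed FOS with EGR1.

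The wider network was read from gene lists around the members. The counts stand beside 33.0% of tested genes called higher and 38.9% called lower in SHEP, and 13.7% and 34.4% in SKNAS, with all-gene medians of -0.04 and -0.29. In the textbook AP-1 target list none rose and 11 of 12 tested genes fell in SHEP, with a median change of -0.63 against -0.04 over all tested genes. PLAU, the urokinase protease, went from 386 ± 104 to 68.2 ± 16.9 TPM (SD, n = 28 each), a change of -2.47 (adjusted p = 9.45e-28). CCL2, a monocyte chemokine, went from 178 ± 65.9 to 34.6 ± 10.1 TPM (SD, n = 28 each), a change of -2.28 (adjusted p = 9.91e-21). In SKNAS 2 of 11 rose and 6 fell, and 3 rose and 5 fell both on rescaled libraries and under the median covariate: PLAU (-1.64) and CCL2 (-1.31) fell most, and the gelatinase MMP9 (1.45) and the hyaluronan receptor CD44 (0.55) rose. MMP9 passed the SKNAS filter only through MYC-ON (means of 0.184 and 2.28 TPM). PLAU passed it only through MYC-OFF (means of 5.28 TPM in MYC-OFF and 0.959 TPM in MYC-ON), so nothing is read from its SKNAS call. The SKNAS median was -0.51 against -0.29 over all tested genes.

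Of the other immediate early genes 3 of 22 tested rose and 14 fell in SHEP (median -0.37), and 4 rose and 14 fell in SKNAS (median -0.85), or 5 and 12 on rescaled libraries and 4 and 11 under the covariate. In SHEP the matricellular gene CCN2 (-1.42) and ZFP36 (-1.17) fell most, and the kinase PLK3 (0.95) and the antiproliferative gene BTG2 (0.83) rose most. In SKNAS NFKBIZ (-1.49) and ZFP36 (-1.47) fell most, and the pseudokinase TRIB1 (1.65) and the synaptic gene ARC (1.51) rose most. The basic leucine zipper partners split evenly in SHEP, 5 of 11 tested rising and 5 falling, and in SKNAS 1 of 10 rose and 4 fell, or 2 and 2 on rescaled libraries and 2 and 1 under the covariate. BATF3, an AP-1 partner of JUN proteins, rose in both lines, from 9.95 ± 1.38 to 30.7 ± 5.16 TPM in SHEP (SD, n = 28 each), a change of 1.52, and by 1.41 in SKNAS. NFE2L1, a regulator of proteasome genes, fell by 0.74 in SHEP and by 1.47 in SKNAS on the log2 scale, and JDP2, a repressor of AP-1, by 0.58 and 0.79. With the median covariate the SKNAS changes were -0.70 for NFE2L1 and -0.29 for JDP2, which was then not called. The small MAF gene MAFK rose by 0.54 in SHEP.

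Of the ERK output and feedback genes 8 of 16 rose and 7 fell in SHEP. In SKNAS 3 of 15 rose and 10 fell, or 4 and 10 on rescaled libraries and 4 and 8 under the covariate. The feedback inhibitor SPRY1 (1.74) and the ETS factor ETV4 (1.301) rose most in SHEP, and the phosphatase DUSP4 (-0.76) and SPRED3 (-0.52) fell most. SPRY1 passed the filter only through MYC-ON (means of 0.280 and 3.35 TPM). EPHA4, counted among those that fell in SHEP, passed it only through MYC-OFF (means of 1.34 TPM in MYC-OFF and 0.696 TPM in MYC-ON). In SKNAS EPHA2 (-2.08) and PHLDA1 (-1.61) fell most, and DUSP5 (0.64) and ETV4 (0.54) rose most. Of 17 upstream kinases and SRF ternary complex factors, 5 rose and 5 fell in SHEP, and 1 rose and 8 fell in SKNAS, where rescaling gave 5 and 6 and the covariate 6 and 4. MAPK3, which encodes ERK1 (-0.63), and ELK3 (-0.50) fell most in SHEP, and MAP2K2 (0.37) and ELK4 (0.32) rose most. In SKNAS MAP3K1 (-1.36) and ELK3 (-1.29) fell most, and MAP2K2 (0.59) rose, a call lost with the covariate (0.27).

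Of the heat shock genes, in SHEP 1 of 8 rose and 4 fell, with HSPA1A at -1.12, DNAJB1 at -0.87 and HSP90AA1 at 0.26. In SKNAS 5 rose and 1 fell, or 6 and 1 both on rescaled libraries and under the covariate, with HSPA1B at 0.74, HSPA1A at 0.68 and the cochaperone BAG3 at -0.97. Their summed level ran from 4071 to 5345 TPM in SHEP MYC-OFF and from 2599 to 5921 TPM in MYC-ON, and from 4303 to 6526 TPM in SKNAS MYC-OFF and from 5718 to 7239 TPM in MYC-ON. The part of these genes' changes in the levels of the AP-1 and immediate early factors was not tested.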

How the data were processed

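Polyadenylated RNA of 83 libraries had been sequenced. The authors mapped reads to Gencode transcripts of GRCh38 with Salmon (version 1.3.0) and summed them per gene, and the deposited values are TPM, which sum to 1000000 in every library. Read depth per library is therefore unknown here, and no counting interval can be given. Of the entries 961 repeat a symbol, of which the one with the highest mean TPM was taken. A second SKNAS series and another cell line were not analysed here.

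Tests used log2(TPM + 1), which understates changes of low genes, and limma (version 3.58.1, R 4.3.3) in place of the study's count model. Genes with a mean of at least 1 TPM over the libraries in a fit were tested (the interaction and the line comparison used genes tested in either line), and Benjamini-Hochberg adjustment ran over all of them. A call needed an adjusted p no higher than 0.05 with a log2 change, or slope per 24 h, of 0.15 or more in size. CT was a factor for levels. Trends and 24 h cosines used linear terms. The code was tested on simulated data.

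The 2 SHEP series are separate biological experiments per the labels. The series number was taken to pair the conditions, though the labels name no shared day. Series deviations in MYC-OFF and MYC-ON correlated at r = 0.49 across 14362 genes. Alternatives were a pseudocount of 0.1, median-of-ratios rescaling, no filter, library median or GC slope as a covariate, a series block, series means as replicates, leaving out a series, CT24, low-median libraries or the SHEP libraries with a GC slope under -2. All members were named, and from each list the 2 called genes with the largest rise and fall per line, plus the 3 nearest genes per member. TDG, IER2, IER3, KLF2, KLF4, PLK2, TRIB1 and CSRNP1 at CT24 and CT48 were named after their values were seen. Members and lists were chosen with earlier results of these data known, and the CT24 and CT48 pattern and the motifs were chosen after seeing the data.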

Additional observations from a re-analysis of the deposited data

Results flagged for a closer look

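The effect of MYC-ON differed between SKNAS and SHEP, by the interaction test, for 7 of 9 tested members, 6 lower and 1 higher, where 38.0% of tested genes were lower and 13.5% higher. The difference, SKNAS minus SHEP on the log2(TPM + 1) scale, was -1.07 for ATF3, -0.61 for MAFF, -0.50 for FOSL2, -0.45 for JUN, -0.41 for FOSL1, -0.31 for JUNB and 0.41 for EGR1, which passed the filter only through SHEP and lay under 2 TPM in SKNAS. The trend over time differed between MYC-ON and MYC-OFF in SHEP, by the test of the slopes' difference, for ATF3 by 0.45 and for MAFF by 0.58 per 24 h. Groups of 13, 14 or 28 libraries were too large for the test of single outlying libraries.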

How the results depend on the processing

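Of 248 called member values under alternatives, 244 kept their direction and 190 their call, and of 507 uncalled values 16 were called. With the library median as a covariate, 3 members were called lower in SHEP (JUND at -0.07 and EGR1 at -0.11 lost it), 3 higher and 1 lower in SKNAS, and 2 higher and 2 lower for the difference between lines, while 0 fell over time in SHEP MYC-ON. Under this covariate SKNAS values turned to 0.48 for FOS, 0.44 for FOSL1 and 0.50 for ATF3, and the difference between lines to 0.0078 for JUN, 0.43 for FOS, 0.0058 for FOSL1 and 0.045 for FOSL2. With rescaling, 3 members were lower in SKNAS, 3 had a lower effect in SKNAS than in SHEP and 1 fell over time in SHEP MYC-ON. Series means as replicates called 2 members lower in SHEP, without JUNB, JUND and EGR1. Without the low-median SKNAS libraries 0 were lower. Without CT24, 1 member rose in SHEP MYC-OFF and 0 fell in SHEP MYC-ON.

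Leaving out 1 SHEP series gave 1 to 2 members higher and 3 to 5 lower in SHEP, 0 to 1 higher and 2 to 3 lower for the difference between lines, 0 to 1 falling in SHEP MYC-OFF, 1 to 1 in SHEP MYC-ON and 0 to 1 for the lower trend difference. JUND in SHEP ran from -0.41 without series 2 to 0.063 without series 1. Without CT24 and CT48, an alternative chosen after seeing the data, 3 members were lower in SKNAS, 0 fell over time in SHEP MYC-ON and EGR1 made 1 lower trend difference; the GC slope covariate and leaving out the 4 SHEP libraries with GC-rich genes low were added after seeing the data too, and without those libraries no count of called members moved by over 1.5 times. With the replicate block the SHEP fit of levels called 2 members higher and 5 lower, as without it. The 1 call the block changed was in the trends over time. There JUND was called to fall in SHEP MYC-ON, at -0.15 per 24 h. With 1 SKNAS series analysed, no block could be fitted there. The cause of these moves was not tested. Depth is unknown, and members near 1 TPM (FOS, FOSB, and EGR1 in SKNAS) are measured least well.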
